A study of Mus musculus with 6 samples.

Results

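Rapgefl1, the gene of a protein related to the exchange factors that switch on the small GTPase Rap, was more than doubled in granule cell nuclei of Ezh1 cKO mice, while its relatives Rapgef1 to Rapgef6, the GTPase genes Rap1a and Rap1b and the inhibitor gene Rap1gap all had differences that missed the threshold. They are 10 of the 24594 genes in the table. Rapgefl1 was chosen by its difference between the genotypes in these same libraries, so its values are a description and carry no test. The other 9 were picked from the Rap family by name, and all 10 passed the filter on low counts.

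The samples were nuclei of the cerebellum sorted for NeuN, an antigen of neuronal nuclei, and labelled as cerebellar granule cells, and their nuclear RNA was sequenced. The mutant mice were Ezh1(cKO/cKO);Neurod1-Cre (cKO, 3 libraries) and the controls Ezh1(wt/wt);Neurod1-Cre (WT, 3 libraries), all 7 months old, so that both genotypes carried the Cre. A conditional allele is lost only in cells in which the Cre has been active, here cells that have used the Neurod1 promoter, and the sort did not select for that. Ezh1 encodes a catalytic subunit of the Polycomb complex PRC2, which methylates lysine 27 of histone H3, and the study asked whether mature neurons need that mark to be maintained for the control of their genes. The labels do not say whether the 3 libraries of a genotype came from separate animals, so p-values measure the spread between these samples, which may be in part technical.

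Libraries held 6340236 to 8284768 counts. Ezh1 was at 52.5, 51.0 and 55.6 CPM (counts scaled to a library size of 1000000) in the cKO libraries, against 71.0, 75.7 and 83.3 CPM in the WT libraries, a ratio of 0.692 (adjusted p = 0.00672, edgeR). The count is for the gene as a whole and does not single out the exons that were deleted. All 12 markers listed for granule cells were detected, with sums of 4613 to 5433 CPM in cKO, against 4674 to 4883 CPM in WT. Neurod1 was the 1 called member (adjusted p = 8.03e-10, edgeR), at a mean of 307.0 CPM in cKO, against 142.2 CPM in WT. The sums include Neurod1 and also Rbfox3, the gene of NeuN, which averaged 890.6 CPM in cKO, against 886.7 CPM in WT. Nuclei were sorted for NeuN, so Rbfox3 is not independent of the sort. Markers of other cells were present at lower sums. Oligodendrocyte markers reached 285 to 639 CPM in cKO, against 227 to 417 CPM in WT. Purkinje cell markers reached 380 to 555 CPM in cKO, against 441 to 631 CPM in WT. Most of the Purkinje cell sum came from Itpr1, which averaged 409.3 CPM in cKO, against 447.9 CPM in WT. The other Purkinje cell markers each averaged between 2.90 and 20.25 CPM in cKO, against between 3.63 and 20.5 CPM in WT. A single entry took 24.5% to 26.7% of all counts in every library. In replicate 1 of both genotypes Xist, which coats an inactive X chromosome, reached 831 CPM (cKO) and 811 CPM (WT), against 1.39 to 4.46 CPM in the other 4 libraries. Ratios within each kind of library are given below for Rapgefl1 and for members whose ratios lay on opposite sides of 1.

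Rap proteins are molecular switches of the Ras superfamily. Exchange factors load them with GTP, GTPase activating proteins return them to the inactive state, and active Rap1 controls integrin and cadherin adhesion, neuronal polarity and, through B-Raf, the ERK pathway. Several exchange factors are tied to particular signals: Rapgef3 and Rapgef4 (Epac1 and Epac2) bind cyclic AMP, Rapgef1 is brought to activated receptors by Crk adaptors, and Rapgef2 and Rapgef6 are PDZ domain proteins.

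Rapgefl1 (NCBI gene 268480) lies on the plus strand of chromosome 11, from 98836785 to 98853009 (GRCm38), and no other gene of the table overlaps it. Its promoter window in RefSeq (GRCm38.p6), which runs from 250 bases before the start to 50 after it, is shown because it belongs to the member that differed. Beside it are the windows of Rapgef6, another exchange factor gene of chromosome 11, and of Rapgef2. The Rapgef2 window has a number of CpG dinucleotides near the median of all windows. It lies inside the gene, which runs on the minus strand from 79286545 to 79062511, so it is not at the gene's outer start. CpG sites are dense at promoters of the kind PRC2 is known to bind, and capitals mark each one.
Rapgefl1, chr11:98836535-98836834, plus strand: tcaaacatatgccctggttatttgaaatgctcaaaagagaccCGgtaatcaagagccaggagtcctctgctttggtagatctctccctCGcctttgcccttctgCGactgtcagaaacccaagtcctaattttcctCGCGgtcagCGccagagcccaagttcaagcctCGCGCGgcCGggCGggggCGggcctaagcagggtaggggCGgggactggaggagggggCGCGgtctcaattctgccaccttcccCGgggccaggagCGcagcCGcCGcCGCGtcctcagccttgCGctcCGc
Rapgef6, chr11:54522595-54522894, plus strand: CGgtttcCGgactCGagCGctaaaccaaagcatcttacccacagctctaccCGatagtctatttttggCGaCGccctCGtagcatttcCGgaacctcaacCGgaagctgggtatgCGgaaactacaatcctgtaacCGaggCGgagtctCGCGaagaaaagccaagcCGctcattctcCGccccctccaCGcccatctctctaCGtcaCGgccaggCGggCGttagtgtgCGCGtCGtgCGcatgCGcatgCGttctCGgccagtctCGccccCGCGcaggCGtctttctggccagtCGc
Rapgef2, chr3:79145826-79146125, minus strand: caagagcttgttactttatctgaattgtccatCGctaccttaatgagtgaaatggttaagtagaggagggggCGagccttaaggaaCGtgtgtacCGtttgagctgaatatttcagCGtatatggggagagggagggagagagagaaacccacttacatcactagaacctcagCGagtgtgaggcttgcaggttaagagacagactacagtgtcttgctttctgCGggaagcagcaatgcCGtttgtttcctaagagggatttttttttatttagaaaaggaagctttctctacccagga

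The Rapgefl1 window held 23 CpG sites, more than 78.5% of the 32841 promoter windows in the RefSeq table, whose median was 7. Of these, 17 lay in the last 150 bases and 6 in the first 150. Its GC content was 62.7%. Rapgef6 had 34 CpG sites, and Rapgef2 8 in the window shown and 4 in its other one. Both Rapgef2 windows lie inside the gene, so the CpG count at its outer start is not known here. A high CpG count was common among the members: Rap1b had 48, Rapgef4 40, Rapgef1 26, Rapgef3 17, and the windows of Rap1gap between 7 and 30. Rapgef5 had 2 in one window and 39 in the other. Motifs were searched on both strands. The E-box CATATG, whose first base lay 245 bases before the start, was found in the Rapgefl1 window and in 3.92% of all windows. The E-box CAGATG was found in windows of Rapgef3 and Rap1gap and in 17.2% of all, and the cyclic AMP response element TGACGTCA in Rap1b alone and in 1.79% of all. These are matches of letters, not measured binding sites. Rap1a was not matched to a window.

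Rapgefl1 had 991, 1023 and 772 counts in cKO libraries 1, 2 and 3, against 332, 474 and 479 counts in WT libraries 1, 2 and 3. Scaled to library size, these were 142.6, 158 and 118.8 CPM in cKO, against 50.2, 66.0 and 58.1 CPM in WT. All 3 cKO libraries lay above all 3 WT libraries, and the lowest cKO value was 1.80 times the highest WT value. The means were 139.8 ± 19.7 CPM in cKO, against 58.1 ± 7.94 CPM in WT (SD, n = 3 each), a ratio of 2.41. On the log2 scale the fitted difference was 1.26 (SE 0.11, 95% interval 1.04 to 1.49, given for the spread between libraries and not as a test), and 27 of 13115 tested genes had a higher value. The replicates of both genotypes scattered to a like degree, with a coefficient of variation of 14.1% in cKO and 13.7% in WT. In replicate 1, with high Xist, the ratio was 2.84, and in the other libraries it was 2.23. Among markers of other neurons that could be in the sort, those of unipolar brush cells summed to 82.8 to 101 CPM in cKO, against 77.8 to 89.2 CPM in WT, and those of inhibitory interneurons to 92.3 to 123 CPM in cKO, against 107 to 123 CPM in WT. Of the 4 unipolar brush cell markers Eomes was higher in every cKO library without passing the threshold, at 21.6, 18.7 and 21.1 CPM in cKO, against 15.7, 6.13 and 8.98 CPM in WT (adjusted p = 0.0868, edgeR). Of the 6 interneuron markers, Gad2 averaged 10.4 ± 1.16 CPM in cKO, against 7.18 ± 1.15 CPM in WT, without overlap (adjusted p = 0.329), and Kit 34.6 ± 6.09 CPM in cKO, against 41.99 ± 3.88 CPM in WT (adjusted p = 0.409). These 3 were named after their values were seen, and their part in the Rapgefl1 difference was not tested. In such bulk samples, more RNA per cell and more cells that hold it cannot be told apart.

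**Figure D1:**
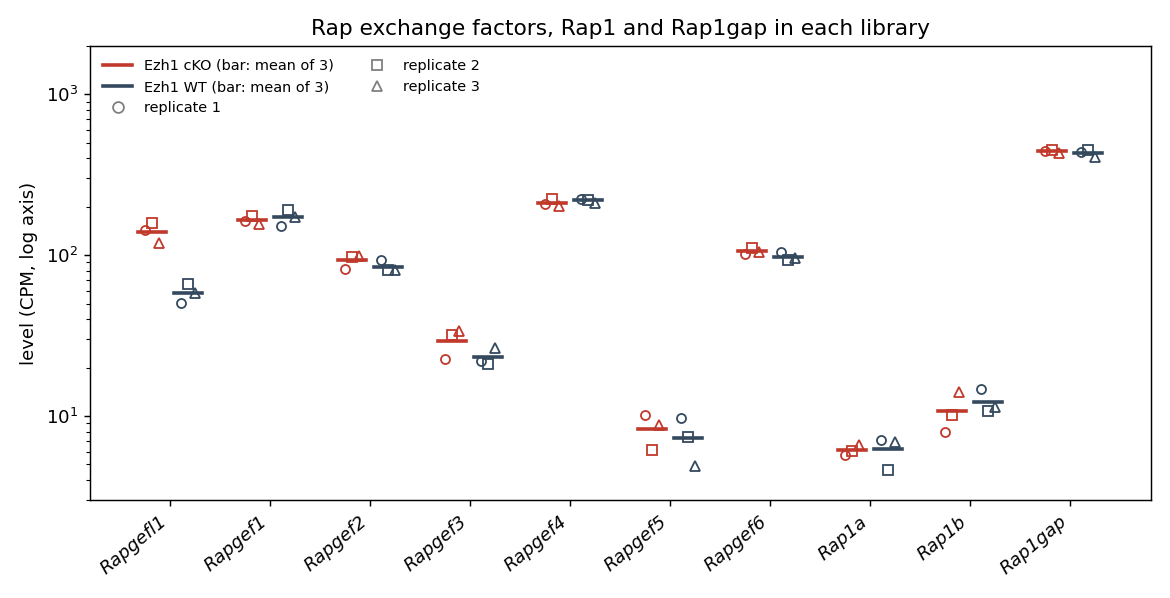
Level of each of the 10 genes in every library (CPM, log axis), with cKO in red on the left and WT in dark blue on the right of each gene, symbols for replicates 1 to 3 and a bar for the mean of 3. Rapgefl1 is the 1 gene whose genotypes do not overlap, at 118.8 to 158 CPM in cKO, against 50.2 to 66.0 CPM in WT.

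Of the other 9 members none was called by edgeR at an adjusted p below 0.05, where 0.579% of all 13115 tested genes were. None was called by limma-voom, where 0.587% of all tested genes were, nor by DESeq2, which gave an adjusted p to 5 of the 9 and called 2.28% of all genes with one. At an unadjusted p below 0.05 there was 1, Rapgef3, beside 11.9% of all tested genes. In none of the 9 were the genotypes free of overlap, as they were in 16.3% of all tested genes. Their log2 fold changes ran from -0.20 to 0.33, with a median of 0.03, beside a median of -0.01 over all tested genes. Each of the 9 intervals lay within a doubling in either direction.

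Both cyclic AMP sensors were detected. Rapgef3 (chr15:97744770-97768419) was at 22.4, 31.8 and 33.7 CPM in cKO, against 21.9, 21.2 and 26.5 CPM in WT. Libraries 2 and 3 of cKO stood above all WT libraries, and cKO library 1 lay among them. The log2 fold change was 0.33 (95% interval 0.02 to 0.65, unadjusted p = 0.0393, adjusted p = 0.389, edgeR). Epac1 is best known from blood vessels, and 5 vessel markers together held 7.63 to 10.9 CPM in cKO, against 8.16 to 11.4 CPM in WT, with none of the 3 tested called, and their part in this value was not tested. Rapgef4 (chr2:71981215-72257474), the Epac common in brain, was at 208, 224 and 202 CPM in cKO, against 223, 221 and 212 CPM in WT. These ranges overlapped, and the log2 fold change was -0.05 (95% interval -0.21 to 0.11, adjusted p = 0.853), so a difference beyond a ratio of 0.865 or 1.08 lay outside its interval.

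Rapgef1 (chr2:29619720-29740364), the partner of Crk, had 162, 175 and 157 CPM in cKO, against 152, 191 and 172 CPM in WT, and the WT range enclosed the cKO range. Its log2 fold change was -0.06 (95% interval -0.24 to 0.12, adjusted p = 0.843, edgeR). The PDZ exchange factor gene Rapgef2 (chr3:79062511-79286545) had 82.3, 97.6 and 99.1 CPM in cKO, against 92.6, 81.1 and 81.2 CPM in WT, with a log2 fold change of 0.13 (-0.06 to 0.32, adjusted p = 0.641, edgeR). Libraries 2 and 3 were higher in cKO and library 1 was lower. The long noncoding RNA gene 4921511C10Rik lies within Rapgef2 and had 42 to 82 counts a library, against 572 to 669 for Rapgef2, and reads of such overlapping genes may not be separable here. Rapgef6 (chr11:54522809-54699286) had 101.6, 111 and 104 CPM in cKO, against 104.6, 93.5 and 95.7 CPM in WT (log2 fold change 0.11, -0.07 to 0.29, adjusted p = 0.669, edgeR). Rapgef5 (chr12:117516526-117759737), a further Rap exchange factor, was the lowest of the family by length, with 40 to 70 counts in cKO and 40 to 64 counts in WT. At that depth its interval was wide, from -0.33 to 0.75 around a log2 fold change of 0.21 (adjusted p = 0.819, edgeR).

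**Figure D2:**
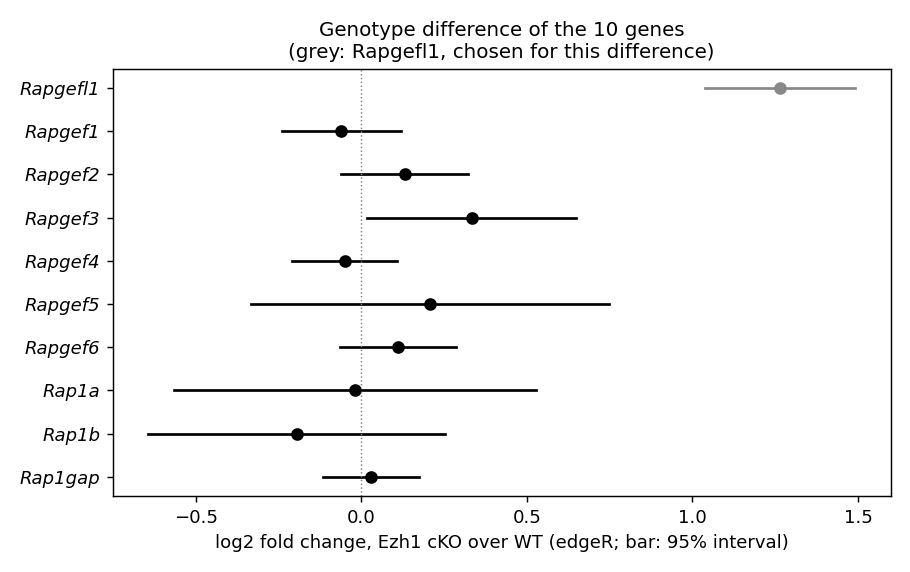
Log2 fold change of each gene, cKO over WT, from edgeR with its 95% interval. Rapgefl1 (grey) is at 1.26 and was chosen for this difference, while the other 9 lie between -0.20 and 0.33.

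The substrates themselves gave few reads. Rap1a (chr3:105727260-105801394) had 40, 39 and 43 counts in cKO and 47, 33 and 57 counts in WT, which is 5.76, 6.02 and 6.62 CPM in cKO, against 7.10, 4.598 and 6.92 CPM in WT. The WT range enclosed the cKO range, and the log2 fold change of -0.02 had an interval of -0.57 to 0.53 (adjusted p = 0.988, edgeR). Rap1b (chr10:117814597-117845974), the close paralog of Rap1a, was at 7.91, 10.2 and 14.01 CPM in cKO, against 14.7, 10.7 and 11.4 CPM in WT, and the genotypes overlapped (log2 fold change -0.20, -0.64 to 0.25, adjusted p = 0.788, edgeR). Within replicate 1 the ratio was 0.540, and over the other libraries 1.09. As ratios these intervals were 0.676 to 1.44 for Rap1a and 0.640 to 1.19 for Rap1b. Ratios anywhere within them are compatible with the counts at this depth. The counting of reads that match near-identical copies is not given in the sources used here.

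Rap1gap (chr4:137664711-137729861), the GTPase activating protein that turns Rap1 off and is known to be abundant in brain, was the most highly counted member, at 443, 452 and 432 CPM in cKO, against 439, 451 and 410 CPM in WT. All 6 values fell within a narrow range and the genotypes overlapped. Its log2 fold change was 0.03 with the narrowest interval of the 10 genes, -0.12 to 0.17 (adjusted p = 0.918, edgeR), which in ratios is 0.922 to 1.13. Rap1gapos, a noncoding gene that overlaps it, had 29 to 61 counts a library against 2806 to 3381 for Rap1gap.

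Levels of different genes were compared as CPM per kilobase of annotated exon. In WT the order was Rap1gap (67.4 ± 3.22), Rapgef4 (32.8 ± 0.86), Rapgef1 (23.2 ± 2.63), Rapgefl1 (10.2 ± 1.40), Rapgef6 (7.50 ± 0.45), Rapgef2 (6.05 ± 0.47), Rap1b (4.25 ± 0.73), Rapgef3 (3.66 ± 0.45), Rap1a (2.38 ± 0.54) and Rapgef5 (0.57 ± 0.19), all in CPM per kilobase. In that order Rap1b and Rapgef3 were the 1 pair of neighbours whose library values overlapped. In cKO, Rapgefl1 held rank 3 at 24.6 ± 3.47 CPM per kilobase, where its values overlapped those of Rapgef1 (22.3 ± 1.27), and Rapgef3 (4.63 ± 0.95) and Rap1b (3.71 ± 1.07) overlapped in the reverse order. Per kilobase of gene span in place of exon, Rapgefl1 was first in cKO and second in WT, so its rank rests on which length is used.

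**Figure D3:**
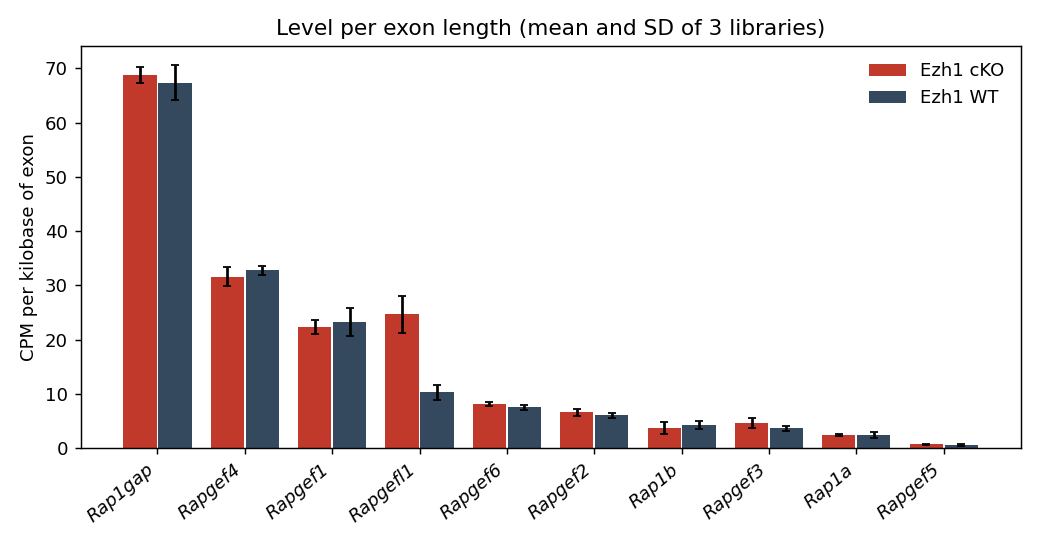
Level per exon length of the 10 genes (CPM per kilobase of exon, mean and SD of 3 libraries; cKO red and left, WT dark blue and right). Rapgefl1 is at 24.6 in cKO and 10.2 in WT, and the library values of the other 9 genes overlap between the genotypes.

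The sum of the 6 classical exchange factor genes was nearly equal between the genotypes. Rapgef1 to Rapgef6 together were at 71.0, 78.2 and 72.5 CPM per kilobase in cKO and 72.8, 75.9 and 72.7 CPM per kilobase in WT, with means of 73.9 ± 3.81 in cKO and 73.8 ± 1.80 in WT. Most of the sum came from Rapgef4 and Rapgef1, at 31.6 and 22.3 CPM per kilobase in cKO, against 32.8 and 23.2 in WT. With that sum level, Rapgefl1 made up 24.9 ± 2.18% of the 7 genes in cKO and 12.2 ± 1.24% in WT. This is a description of the values Rapgefl1 was chosen by. The shares rest on exon length. They were not computed by gene span, by which Rapgefl1 ranked higher in both genotypes.

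Beyond these genes, 58 genes around Rap in 6 lists were in the table and 56 were tested. EdgeR called none of the 56 and limma-voom none, and DESeq2 called 2, Sipa1l3 and Plcg1, among the 34 to which it gave an adjusted p, where it called 2.28% of the 4639 genes to which it gave one. At an unadjusted p below 0.05 edgeR had 8 higher and 2 lower, and in 10 the genotypes did not overlap, beside 11.9% and 16.3% of all tested genes. Their median log2 fold change was 0.04. Without WT library 1, edgeR called 1 of them, Sipa1l2.

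Of 9 other GTPase activating proteins of Rap, 8 had a positive log2 fold change (median 0.17), 0 were called by edgeR and 3 had an unadjusted p below 0.05, all higher. Over all tested genes 48.8% had a positive value and 11.9% an unadjusted p below 0.05. Sipa1l3, a synaptic and junctional member of the SIPA1 family, was at 199, 185 and 181 CPM in cKO, against 153, 146 and 163 CPM in WT, with no overlap (log2 fold change 0.29, SE 0.08, adjusted p = 0.0998, edgeR). Sipa1l2 was at 80.7, 84.9 and 91.6 CPM in cKO, against 83.9, 61.4 and 66.3 CPM in WT, where WT library 1 lay among the cKO values (0.28, adjusted p = 0.242). Sipa1l1 (SPAR), which shapes dendritic spines, averaged 146.4 ± 8.18 CPM in cKO, against 129.97 ± 2.10 CPM in WT (0.17, adjusted p = 0.401).

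Of 8 adaptors upstream of the exchange factors, 0 were called by edgeR and 2 had an unadjusted p below 0.05, Plcg1 and Gab1. Plcg1, a phospholipase and scaffold of growth factor receptors, was at 250, 269 and 234 CPM in cKO, against 213, 196 and 212 CPM in WT, again with no overlap (log2 fold change 0.28, SE 0.08, adjusted p = 0.111, edgeR). Of 19 tested effectors and binding proteins, 8 were positive and 11 negative (median -0.01). Among these, 2 were higher at an unadjusted p below 0.05, the kinase gene Braf (0.18) and Krit1 (0.24), and 2 were lower, the kinase genes Map4k4 and Tnik. Map4k4 had the smallest p of the list, at 276, 325 and 343 CPM in cKO, against 349, 394 and 351 CPM in WT (log2 fold change -0.21, adjusted p = 0.278, edgeR). For Tnik, an effector of Rap2, the log2 value was -0.20 (adjusted p = 0.312, edgeR).

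The 3 Rap2 GTPase genes had 27 to 112 counts a library and log2 fold changes of -0.13 to 0.08, with the smallest p for Rap2c (adjusted p = 0.904, edgeR). Of 8 exchange factors outside the Rapgef family 4 were positive and 4 negative, and Plce1 had the smallest p (-0.22, adjusted p = 0.556). Among 9 tested Ras GTPases and Ras exchange factors, set beside Rap as near relatives, Nras had the smallest p (17.2 ± 2.68 CPM in cKO, against 13.3 ± 1.30 CPM in WT, log2 fold change 0.37, adjusted p = 0.401, edgeR). No list had a called member by edgeR.

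**Figure D4:**
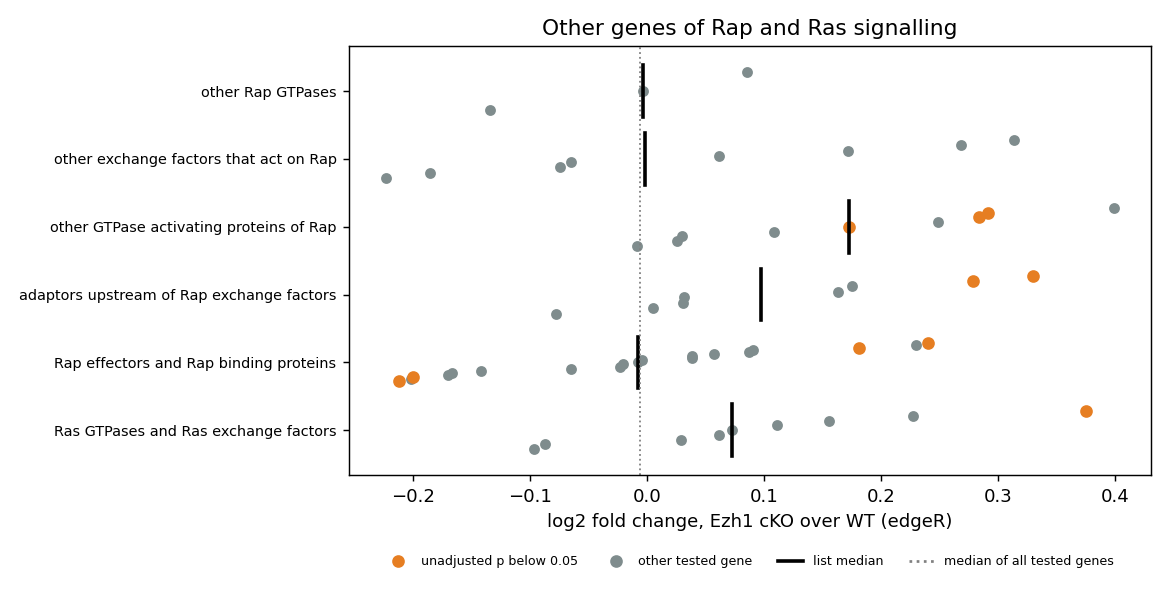
Log2 fold change, cKO over WT, of each tested gene in the 6 lists around Rap, with a black bar for the median of a list and a dotted line for the median of all tested genes. Points in orange have an unadjusted p below 0.05; GTPase activating proteins have the highest median, 0.17, and the values of all genes lie between -0.22 and 0.40.

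Rapgefl1 and Ezh1 lie on the same chromosome, with 2.34 Mb between the end of the one and the start of the other. The 10 nearest tested genes, 5 on each side of Rapgefl1, had log2 fold changes of -0.26 to 0.33 and none was called by edgeR, with 1 at an unadjusted p below 0.05. Casc3, which ends 2.98 kb before Rapgefl1, averaged 100.5 ± 6.19 CPM in cKO, against 90.5 ± 7.46 CPM in WT (0.15, 95% interval -0.03 to 0.34, adjusted p = 0.535, edgeR), and Wipf2, which begins 10.6 kb after it, averaged 57.5 ± 1.44 CPM in cKO, against 60.05 ± 1.93 CPM in WT (-0.06, -0.26 to 0.14, adjusted p = 0.855). Gm12359, Msl1 and Nr1d1 had values of 0.17, 0.12 and -0.10. Thra, the gene of a thyroid hormone receptor 67.8 kb away, had -0.20 (adjusted p = 0.355) and the retinoic acid receptor gene Rara 0.33 (adjusted p = 0.443). Smarce1, Krt222 and Krt24 had -0.20, -0.16 and -0.26.

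Of 39 tested genes between Rapgefl1 and Ezh1, 3 were called, beside 0.579% of all tested genes, all lower in cKO, and all 3 (Tubg2, Plekhh3 and Cntnap1) lay within 29.3 kb of Ezh1 and at least 2.30 Mb from Rapgefl1. None of the 39 was called higher in the fit reported here. Hap1, 834 kb from Ezh1, was higher in cKO without being called (log2 fold change 0.35, adjusted p = 0.101, edgeR). It was called without cKO library 2 and with no filter on low counts. The 3 calls fell to 0 without cKO library 3 or WT library 3, to 1 without cKO library 1 or WT library 2, and to 1 without both libraries of high Xist. On the other side, Neurod2, a neuronal transcription factor gene 507 kb before Rapgefl1, was lower in cKO (63.8 ± 3.98 CPM in cKO, against 86.3 ± 7.95 CPM in WT, -0.44, adjusted p = 0.0269, edgeR). It was named after its values were seen. What the shared chromosome contributes was not tested.

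**Figure D5:**
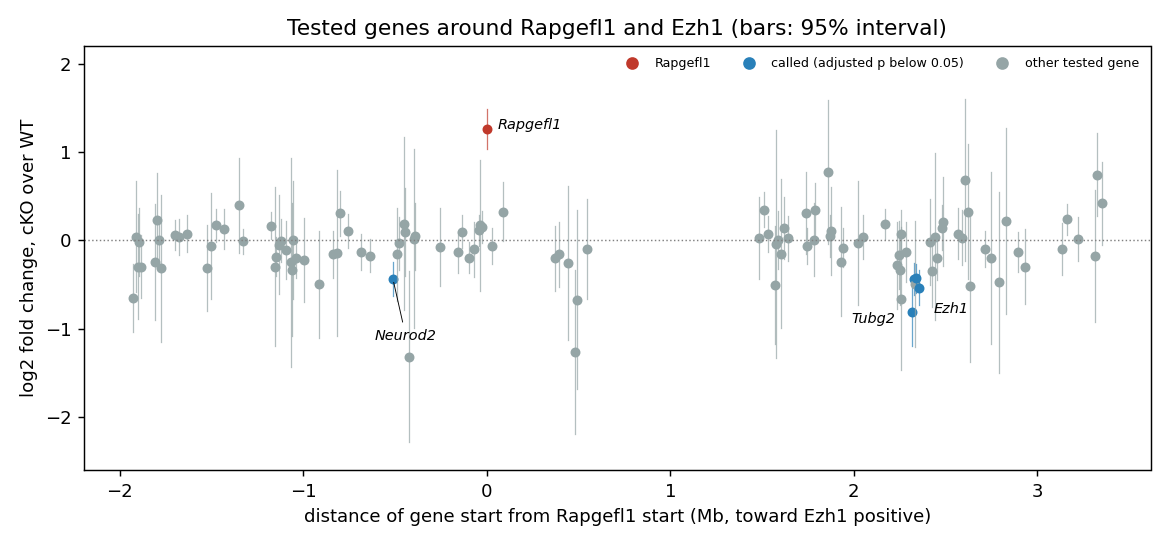
Log2 fold change, cKO over WT, with 95% intervals of tested genes around Rapgefl1 and Ezh1, by distance of the gene start from that of Rapgefl1 (Mb). Rapgefl1 (red) stands at 1.26, its nearest neighbours lie around 0, and the called genes in blue between both loci sit beside Ezh1.

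Of 8037 other genes that averaged 10 CPM or more, the 5 whose log2 CPM followed Rapgefl1 most closely over the 6 libraries were Mtf1 (Pearson r of 0.99), Neurod1 (0.99), Akap1 (0.98), Txndc16 (0.98) and Cyhr1 (0.98). The 3 most inverse were Pus10 (-0.99), Aldh1l2 (-0.98) and Ubxn6 (-0.98). These are a description over 6 libraries that share their genotype contrast, and 178 of the 8037 were beyond 0.9 in size. With the genotype means removed, r was 0.861 for Mtf1, 0.813 for Neurod1 and 0.524 to 0.678 for the other 3. Neurod1, the neuronal transcription factor whose Cre line was used, was at 317, 318 and 287 CPM in cKO, against 138, 154 and 134 CPM in WT. Akap1, which anchors the cyclic AMP dependent kinase at mitochondria, was at 84.7, 91.7 and 82.2 CPM in cKO, against 59.4, 58.9 and 61.5 CPM in WT. All 8 of these genes were separated by genotype, as 16.3% of all tested genes were, which follows nearly of itself from their choice by likeness to Rapgefl1. Among the members themselves, r with Rapgefl1 was between -0.54 (Rap1b) and 0.59 (Rapgef6), and with the genotype means removed between -0.76 (Rap1b) and 0.92 (Rapgef1).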

How the data were processed

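The authors deposited whole-number counts per gene, not normalized, 1 column for each of 6 libraries, named by NCBI gene identifiers. Per the submitters' processing notes the tools and build include Subread and mm10; which version, annotation, strand and multi-mapping settings were used is not stated in them. Of 24594 entries, 24570 matched a gene of RefSeq GRCm38.p6, the source of symbols and positions. Strand and exon lengths came from GENCODE M21 (GRCm38).

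Counts were fitted in R 4.3.3 with edgeR 4.0.16: filterByExpr (13115 genes, 99.8% of counts), TMM factors of 0.982 to 1.02, robust glmQLFit and glmQLFTest across all genes, genotype as the only term. P-values are two-sided, Benjamini-Hochberg adjusted over all tested genes, and a gene is called below 0.05. CPM are counts scaled by library total and TMM factor, shown as means ± SD of 3 libraries, and intervals are 95% intervals of the fit. The procedure was tested on simulated data. DESeq2 1.42.0 and limma-voom (limma 3.58.1), other scalings, no filter, a replicate block, a term for Xist and left-out libraries were alternatives.

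The members, lists and tests were chosen with earlier results of these data known. Named were all members, every called gene of a list or its member of smallest p, the 5 nearest tested genes on each side of Rapgefl1, and its 5 most alike and 3 most inverse genes by Pearson r of log2 CPM (prior count of 2), predicted gene models passed over. Others with an unadjusted p below 0.05 were named after their values were seen, as were the genes called beside Ezh1. No 2 libraries of a genotype agreed within counting error (chi-square over its degrees of freedom, 3.87 to 4.78).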

Additional observations from a re-analysis of the deposited data

Results flagged for a closer look

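Rapgef2 and Rapgef6 drew attention because the genotypes lay in opposite directions in the 2 kinds of library. In the libraries with low Xist, both cKO values were above both WT values, with ratios of cKO to WT of 1.21 for Rapgef2 and 1.14 for Rapgef6. In replicate 1, with high Xist and 1 library a genotype, the ratios were 0.889 and 0.971. The difference between the kinds was not tested, and 15.5% of all tested genes showed such a pattern. By ratio alone, other members also lay on opposite sides of 1 in replicate 1 and in the other libraries. These were Rapgef1 (1.07 and 0.915), Rap1a (0.810 and 1.10) and Rap1b (0.540 and 1.09). In the libraries with low Xist their genotypes overlapped.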

How the results depend on the processing

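The log2 fold change of Rapgefl1 stayed between 1.16 and 1.37 over 15 alternatives (1.17 to 1.37 without 1 library, 1.26 with a replicate block). The count of other members called was 0 under all 15. The count of pathway genes called was 0 as reported and 2 with DESeq2, and without 1 library it ran from 0 to 1. The genes called between Rapgefl1 and Ezh1, 3 as reported, ran from 0 to 4 without 1 library and were 1 without both libraries of high Xist. They were also 4 with no filter. Where 4 were called, the added gene was Hap1, which was higher in cKO in the reported fit. The cause of these changes was not tested. Among 225 values of single genes under alternatives, 2 passed the threshold (Sipa1l3 and Plcg1 with DESeq2), none crossed it with the other sign, and 10 uncalled values took the other sign. Calls over all genes were 76 as reported, 106 with DESeq2, 277 with no filter, 125 with a term for Xist, 43 without both libraries of high Xist, and 13 to 249 without 1 library. Same-numbered libraries did not all deviate together (r of 0.151, 0.0053 and -0.0380 for replicates 1, 2 and 3, and 0.0578 over autosomal genes for replicate 1, the pair with high Xist), so the numbers were not treated as pairs. Low counts limit Rap1a, Rap1b and Rapgef5.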
